A study of Mus musculus with 2 samples.

Results

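Arginine is the shared substrate of the arginases and the nitric oxide synthases, and 6 genes of its metabolism were followed here through the cells of mouse skin wounds: *Arg1*, *Arg2*, *Nos2*, *Ass1*, *Odc1* and *Slc7a2*. They were taken by symbol from the 31053 genes of the count matrices, and each symbol matched 1 row. The list was drawn up with earlier results of these data known, in which *Arg1* differed greatly between the libraries, so that the levels below are a description. The cytosolic arginase Arg1 and the mitochondrial arginase Arg2 split arginine into ornithine and urea. The inducible synthase Nos2 turns arginine into nitric oxide and citrulline, Ass1 joins citrulline to aspartate on the way back to arginine, Odc1 turns ornithine into putrescine as the entry to the polyamines, and Slc7a2 carries arginine and other cationic amino acids into the cell. Wound macrophages are known for both fates of arginine, and *Arg1* and *Nos2* are widely used as opposing labels of macrophage states.

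The data were 2 single-cell RNA libraries of live (7AAD-negative) cells sorted from wound bed and back skin taken with a 10 mm punch at day 5. By the labels, both groups were C57BL/6 mice of 7 to 9 weeks carrying Mrc1-DTR, in which the promoter of *Mrc1* (CD206) drives the diphtheria toxin receptor, so that the toxin kills Mrc1-expressing cells of any type. One library was labelled PBS and the other Diphtheria toxin (DTX), with 3 mice per group and no biological replicate library, so there is no test between conditions. The study's methods describe the controls otherwise, as wild-type mice that also received the toxin, and its cell numbers for the groups are exchanged relative to the files. The targeted gene *Mrc1* stood at 491 CPM (UMIs of the gene per 1000000 UMIs of the class, 95% interval 476 to 507) in the macrophage-like cells of the library labelled PBS and at 428 (421 to 436) in those of the library labelled DTX. All directions below therefore refer to the labels.

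After filtering, 7944 cells of the library labelled PBS (81235634 UMIs, unique molecular identifiers, each a captured RNA molecule) and 6613 of the library labelled DTX (54872675 UMIs) were kept. The cell types were rebuilt by clustering in which the arginine genes took no part. Macrophage-like cells, in which 12 of 12 listed markers were raised, numbered 1703 and 4437, or 21.4% and 67.1% of kept cells, whereas fibroblast-like cells numbered 3067 and 655 and epithelial-like cells 2066 and 235. A further 6 groups held at least 50 cells in each library and were compared as well: dendritic-like, neutrophil-like, NK or T-like, pericyte-like and endothelial-like cells and an unnamed cluster 8. Every interval is a 95% interval of counting error alone, and says nothing about differences between mice or captures. Because each transcript is counted at its 3′ end, levels are compared within a gene and not between genes.

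Over all kept cells, *Arg1* held 416 UMIs in the library labelled PBS and 20129 in the library labelled DTX, which is 5.12 and 367 CPM, and 1.66% and 27.1% of cells had at least 1 UMI. *Arg2* stood at 14.5 and 159 CPM, *Ass1* at 26.9 and 134, and both were thus also higher in the DTX-labelled library. The remaining genes did not follow them. *Odc1* was measured at 1358 and 1182 CPM, *Slc7a2* at 58.4 and 34.8, and *Nos2*, the least counted member, at 1.87 (152 UMIs) and 2.24 (123 UMIs). Since the libraries differ in their cell types, these totals were next resolved by class.

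**Figure D1:**
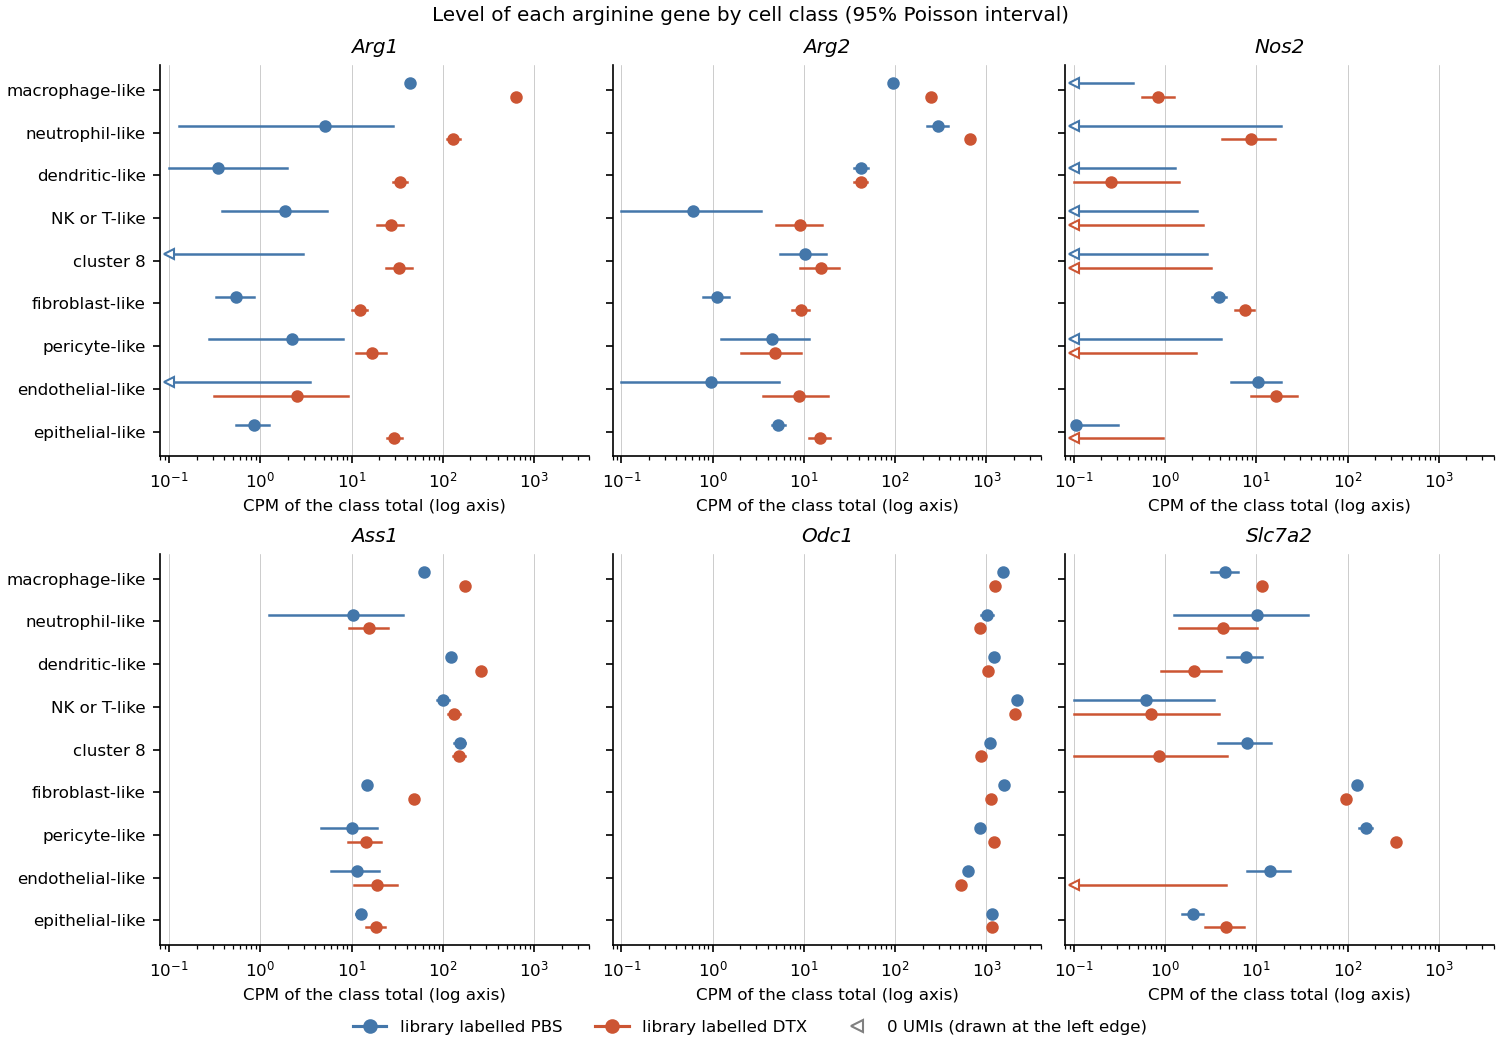
CPM of each arginine gene (log axis, cut at 0.1 on the left) in 9 cell classes, blue for the library labelled PBS and red for the library labelled DTX, with 95% Poisson intervals and open triangles for 0 UMIs. *Arg1* lies to the right in the DTX-labelled library in every class, from 43.9 to 636 CPM in macrophage-like cells, whereas *Odc1* stays between 521 and 2153 CPM in all classes and *Nos2* reaches its highest levels in endothelial-like cells.

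The class that held most *Arg1* was the macrophage-like one, with 88.0% of all *Arg1* UMIs in the library labelled PBS and 96.8% in the library labelled DTX. Its level there was 43.9 CPM (39.5 to 48.6, 366 UMIs) and 636 CPM (627 to 645, 19492 UMIs). The log2 ratio of DTX to PBS, taken after adding 1 CPM, was 3.83 (3.68 to 3.98), and *Arg1* ranked 1 of the 10170 genes with at least 50 UMIs in this class. The mitochondrial arginase *Arg2* was measured at 94.0 CPM and at 248 CPM, with rank 73 and a log2 ratio of 1.389 (1.284 to 1.496). *Ass1* stood at 62.6 and 174 CPM, a ratio of 1.46 (1.33 to 1.59) and rank 53. The transporter *Slc7a2* was sparse, with 38 and 357 UMIs, or 4.56 and 11.7 CPM, and its ratio was 1.19 (0.78 to 1.61). *Odc1* was lower in the DTX-labelled library by a small step, 1527 against 1236 CPM, a ratio of −0.31 (−0.33 to −0.28). Thus 4 of the 5 members with enough UMIs were at least 2-fold higher and 0 were 2-fold lower, with a median log2 ratio of 1.39. Of all 10170 genes in these cells, 1.63% were at least 2-fold higher and 3.32% at least 2-fold lower, and their median log2 ratio was 0.062.

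*Nos2* had 0 UMIs in the 1703 macrophage-like cells of the PBS-labelled library, where 3 counts would have been 0.360 CPM, and 26 UMIs in 19 of the 4437 cells of the DTX-labelled library, which is 0.849 CPM (0.554 to 1.24). Against that floor of 3 counts the measured level was 2.36-fold higher, which leaves out the counting error of the 26 UMIs. The log2 ratio with 1 CPM added was 0.89, with a lower limit of 0.30. The share of cells with a UMI, 0.428%, was under what 0 of 498 epithelial-like, NK or T-like and pericyte-like cells of the same library allows (up to 0.602%), classes with no *Nos2* UMI and a greater median depth (8059 to 16070 against 6730 UMIs). By level the order was the other way, since 3 counts over the 6980024 UMIs of those classes together would be 0.430 CPM, which lies below the interval of the macrophage-like level. The limit on the share depends only on the number of cells in classes taken with no *Nos2* UMI. Cluster 8, with 0 of 79 cells, was not among them. With 26 UMIs in all, these comparisons do not settle whether *Nos2* in macrophage-like cells stood above free RNA.

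Because deeper cells show more genes, each cell was also thinned at random to 2000 UMIs, which left out 222 and 138 macrophage-like cells. *Arg1* was then found in 51 of 1481 cells (3.44%, Clopper-Pearson 2.58 to 4.50) of the PBS-labelled library and in 1226 of 4299 (28.5%, 27.2 to 29.9) of the DTX-labelled one. Without thinning the shares were 5.87% and 38.0%. *Arg2* was found in 14.7% and 33.6% of thinned cells, *Ass1* in 8.58% and 23.3%, *Slc7a2* in 1.01% and 2.00%, and *Odc1* in 79.4% and 71.5%. The order of the libraries was the same for the shares as for the CPM in each of these 5 genes.

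The *Arg1* UMIs were unevenly spread over the cells. In the library labelled DTX, 8.54% of macrophage-like cells had 1 UMI, 9.08% had 2 to 4, 13.7% had 5 to 19, and 294 cells (6.63%) had 20 or more, up to 156. In the library labelled PBS, 1 cell reached 20 UMIs, and the highest value was 25. The top 10% of DTX-labelled cells, 444 in number, held 73.3% of the *Arg1* UMIs of the class. For *Ass1* the corresponding share was 51.3%, for *Arg2* 40.4% and for *Odc1* 35.8%. It was 100% for *Slc7a2* and *Nos2*, and for *Arg1* in the PBS-labelled library. Each of these was found in fewer than 10% of the cells, so the share depends on how sparse a gene is.

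**Figure D2:**
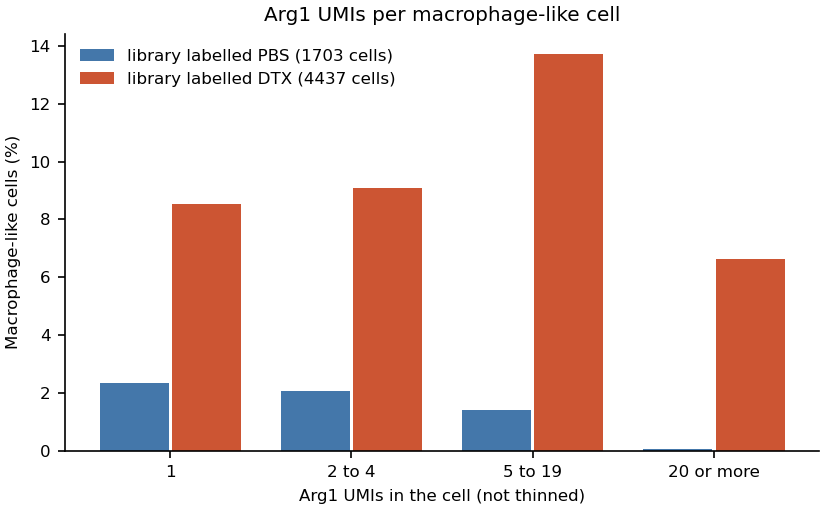
Percent of macrophage-like cells (vertical axis) with a given number of *Arg1* UMIs, not thinned, in the library labelled PBS (blue, 1703 cells) and the library labelled DTX (red, 4437 cells). Cells with 0 UMIs are not drawn. The red bars are the taller in all 4 bins, with 13.7% of cells at 5 to 19 UMIs and 6.63% at 20 or more.

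The make-up of the macrophage-like class differed between the libraries, so the levels were also taken within its parts. Clustered on their own, again without the arginine genes, the cells fell into 8 subclusters. Subclusters 0 (led by *H2-Eb1*, *H2-Aa* and *Cd74*, class II antigen presentation) and 3 (*Hspa1a*, *Hspa1b* and *Ccl8*) held 834 and 633 cells of the PBS-labelled library but 440 and 296 of the DTX-labelled one. Subclusters 1 (*Hp*, *Ifitm6*, *Slpi*, *Vcan*), 2 (*Arg1*, *Cxcl3*, *Ccl24*, *Fn1*) and 4 (*Ccl7*, *Cbr2*, *Ccl8*, *Pf4*) came almost wholly from the DTX-labelled library, with 1232, 1001 and 685 of its cells against 36, 8 and 40. A subcluster mostly of 1 library may be that library rather than a cell state.

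Subcluster 2, the *Arg1*-high macrophages, held 70.9% of the *Arg1* UMIs of the class in the DTX-labelled library, at 2262 CPM (2225 to 2300) and with *Arg1* in 71.9% of thinned cells. Its 8 cells of the PBS-labelled library stood at 1198 CPM (867 to 1614). Outside it, *Arg1* was measured in the DTX-labelled library at 99.0 CPM in subcluster 0, 138 in subcluster 3 and 240 to 294 in subclusters 1, 4, 5, 6 and 7. The comparison could also be made inside the 4 subclusters with at least 50 cells in each library. There the log2 ratio of *Arg1* was 1.91 (1.60 to 2.21) in subcluster 0 (25.7 to 99.0 CPM), 0.74 (0.45 to 1.03) in subcluster 3 (81.9 to 138), 4.64 (3.49 to 6.01) in subcluster 5 (led by *Il1r2*, *Ramp3* and *Pgf*, 5 and 1365 UMIs) and 6.12 (4.004 to 7.857) in subcluster 6 (led by the interferon-induced *Cxcl10*, *Rsad2* and *Ifit1*, 1 and 221 UMIs). By CPM, *Arg1* was thus higher in the DTX-labelled library within each of the 4, by amounts that ranged widely. In subcluster 3 the shares of thinned cells with *Arg1* lay close together, 6.25% of 432 and 7.51% of 213 cells. They were 2.08% and 9.11% in subcluster 0, 0% and 18.8% in subcluster 5, and 1.45% and 11.8% in subcluster 6.

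*Arg2* followed a different map. Its highest levels in the DTX-labelled library were in subclusters 1 (356 CPM, with 42.2% of the class's *Arg2* UMIs) and 2 (335 CPM), and its lowest was 18.4 CPM in subcluster 7, which was led by *Ctsk*, *Acp5* and *Mmp9*. Within the subclusters shared by the libraries its log2 ratio was 0.07 (−0.14 to 0.28), 0.44 (0.07 to 0.80), 0.14 (−0.15 to 0.44) and 0.85 (0.30 to 1.44) in subclusters 0, 3, 5 and 6. None of these 4 reached the 2-fold step that the whole class showed. *Ass1* was highest in subclusters 6 (311 CPM) and 5 (292 CPM) of the DTX-labelled library, and its ratios in the same 4 subclusters were 0.57, 0.75, 0.83 and 1.54. *Odc1* was highest in subcluster 4 (2047 CPM) and had ratios of −0.11, −0.73, −0.54 and −0.26.

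When the shared subclusters were given the proportions of the PBS-labelled library, over 1619 and 1464 cells, *Arg1* stood at 45.8 and 129 CPM, a log2 ratio of 1.47 in place of 3.83. *Arg2* stood at 86.2 and 101 CPM (0.22), *Ass1* at 58.2 and 98.9 (0.76), *Odc1* at 1540 and 1218 (−0.34) and *Slc7a2* at 4.38 and 3.96 (−0.12). Under equal proportions *Arg1* remained past 2-fold and the other members did not. The 1.63% of all genes higher and 3.32% lower belong to the ratios of the whole class. The shares under equal proportions are not given here. This comparison was chosen after seeing the data and leaves out the 4 subclusters that hold most of the DTX-labelled cells.

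**Figure D3:**
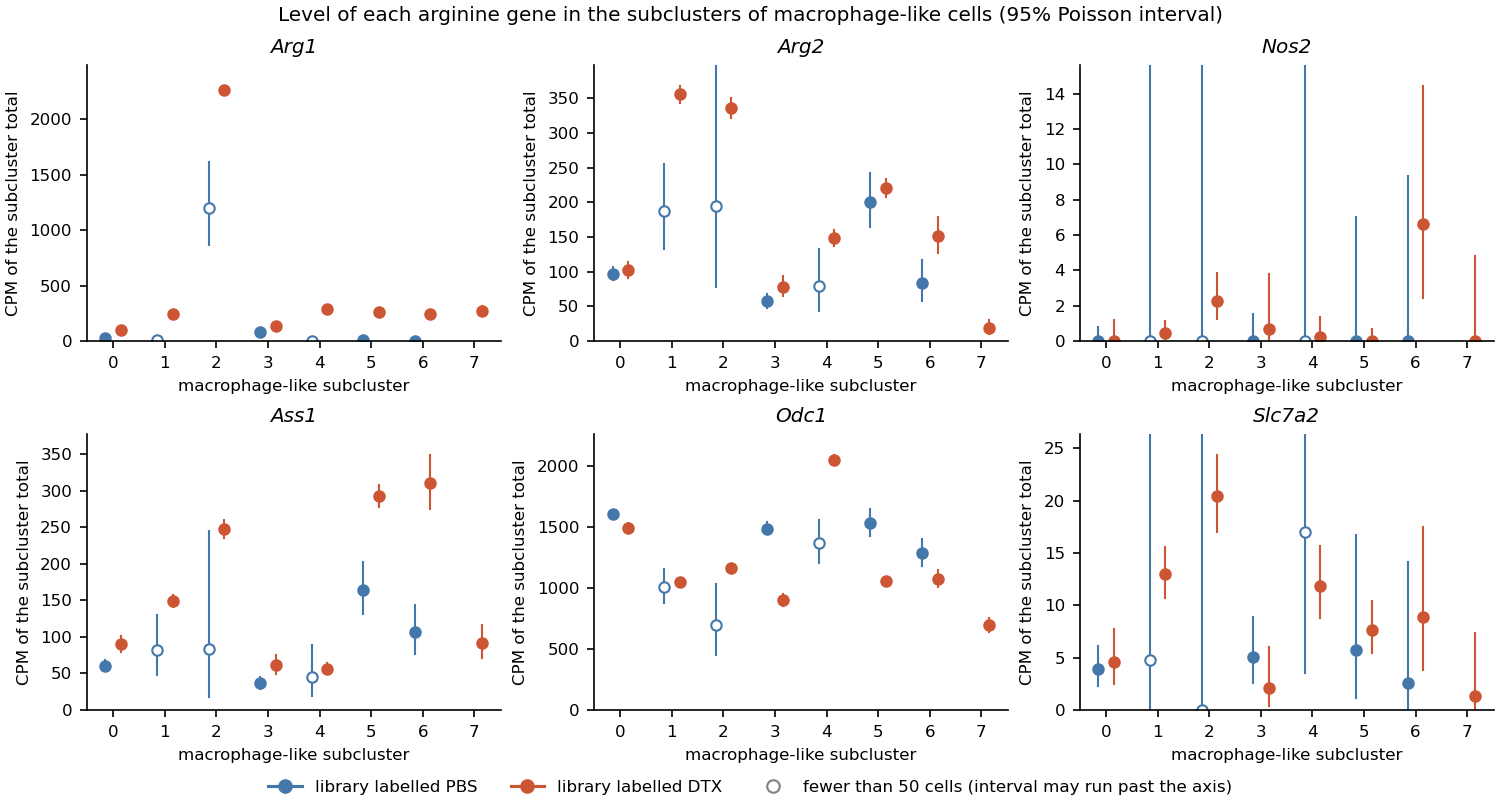
CPM of each arginine gene (vertical axis, starting at 0, a scale of its own in each panel) in the 8 subclusters of macrophage-like cells, blue for the library labelled PBS and red for the library labelled DTX, with 95% Poisson intervals. Open points stand for fewer than 50 cells, and their intervals may run past the axis. *Arg1* peaks in subcluster 2 at 2262 CPM, *Arg2* in subcluster 1, *Ass1* in subclusters 5 and 6, and *Odc1* in subcluster 4.

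Other RNA also moved with the library inside this class. All 10 listed fibroblast genes were at least 2-fold lower in the DTX-labelled macrophage-like cells (summed level 922 to 192 CPM), as were all 10 listed keratinocyte genes (548 to 163 CPM). Of 7 neutrophil genes with enough UMIs, 4 were higher (summed level 141 to 198 CPM), and of 10 macrophage genes 4 were lower. Their part in the arginine gene ratios was not tested. Of the listed monocyte genes 6 of 8 were higher, such as *Vcan* (63.7 to 301 CPM), and of the genes of alternative activation 2 of 10 were higher, *Chil3* (172 to 1384) and *Ccl24* (54.0 to 240), and 3 of 10 lower, *Retnla* (21.8 to 3.23), *Mgl2* (94.0 to 17.6) and *Folr2* (99.3 to 29.8). Of the 10 inflammatory genes 3 were higher, led by the chemokine *Cxcl3* (106 to 902 CPM), and of the 10 genes of hypoxia and glycolysis 0 passed 2-fold in either direction. These counts stand beside 1.63% of all 10170 genes that were 2-fold higher and 3.32% that were 2-fold lower. *Chil3* is on both the monocyte and the alternative activation lists and was counted in each.

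In macrophage-like cells 29 further genes of the arginine pathway, from 7 listed groups, had 50 UMIs or more, and 0 of them were 2-fold higher or lower, beside 1.63% higher and 3.32% lower of all genes. Among the transporters, *Slc7a1* stood at 31.4 and 31.5 CPM and *Slc3a2*, the heavy chain that partners several amino acid transporters, at 741 and 520 (log2 ratio −0.51). *Asl*, which completes the return from citrulline to arginine after Ass1, stood at 27.1 and 39.7 CPM (0.53, 0.33 to 0.74), and the other 3 genes listed for the urea cycle had fewer than 50 UMIs. *Gch1*, which starts the synthesis of the cofactor of the nitric oxide synthases, stood at 130 and 185 CPM (0.50), and *Qdpr*, which regenerates that cofactor, at 45.7 and 29.2 (−0.63). Around Odc1, the antizyme *Oaz1* stood at 862 and 840 CPM, *Smox*, which oxidizes spermine, at 373 and 509 (0.45), and *Paox* at 9.47 and 5.32 (−0.73). *Oat*, which leads ornithine towards glutamate and proline, stood at 65.9 and 60.3 CPM (−0.13, −0.26 to 0.01).

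The joint detection of *Arg1* and *Nos2* was examined cell by cell. In the library labelled DTX, of 4299 macrophage-like cells thinned to 2000 UMIs, 1226 had *Arg1*, 10 had *Nos2* and 6 had both. *Nos2* was found in 0.489% (0.180 to 1.06) of the cells with *Arg1* and in 0.130% (0.035 to 0.333) of the 3073 cells without it, and these intervals overlap. Not thinned, 17 of the 19 cells with *Nos2* also had *Arg1*, and *Nos2* was found in 1.01% (0.589 to 1.61) of 1685 cells with *Arg1* and 0.073% (0.009 to 0.262) of 2752 cells without. These shares are set by cells of unequal depth. Of the 6 cells with both genes after thinning, 5 were in subcluster 2, and by CPM *Nos2* was highest in subcluster 6 (6 UMIs, 6.64 CPM, 2.44 to 14.5) and subcluster 2 (14 UMIs, 2.29 CPM, 1.25 to 3.85). In the library labelled PBS, 0 of 51 thinned cells with *Arg1* had *Nos2*, which by a floor of 3 counts allows a share of up to 5.88%.

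In fibroblast-like cells, in which most *Nos2* UMIs lay, few cells had both genes. Thinned, 2 cells with *Arg1* and 21 with *Nos2* gave 0 with both in the PBS-labelled library, and 13 and 5 gave 0 in the DTX-labelled one. Not thinned, 2 of 655 DTX-labelled cells had both. In neutrophil-like cells of the DTX-labelled library, 24 cells had *Arg1* and 8 had *Nos2* without thinning, and 0 had both, which by the same floor allows up to 12.5% of those 24.

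The other members were found with *Arg1* to different degrees in the DTX-labelled macrophage-like cells. With the cells ordered by their *Arg1* count after thinning (0, 1, 2 to 4, 5 to 9, and 10 or more UMIs in 3073, 381, 415, 262 and 168 cells), the share with *Arg2* went from 31.4% through 34.7%, 38.8% and 41.2% to 45.2%. The share with *Ass1* went from 21.9% to 29.8%, and that with *Slc7a2* from 1.40% (1.01 to 1.88) to 8.33% (4.63 to 13.6). *Odc1* lay between 70.2% and 73.7% in all 5 bins, with overlapping intervals. *Mrc1* lay between 39.4% and 47.6%, also with overlapping intervals. In cells with *Arg1* and without *Nos2*, *Ccl24* stood at 609 CPM and *Cxcl3* at 2075, against 90.8 and 497 in cells with neither gene, whereas *Mgl2* stood at 4.51 against 19.2. These groups differ in their subclusters. Subcluster 2, which *Ccl24* and *Cxcl3* help to lead, held 56.7% of the former cells and 8.86% of those with neither gene. *Arg2* was found in 43.3% of all its thinned cells. The *Arg1* bins pool all subclusters, and the shares were not taken by bin within a subcluster.

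**Figure D4:**
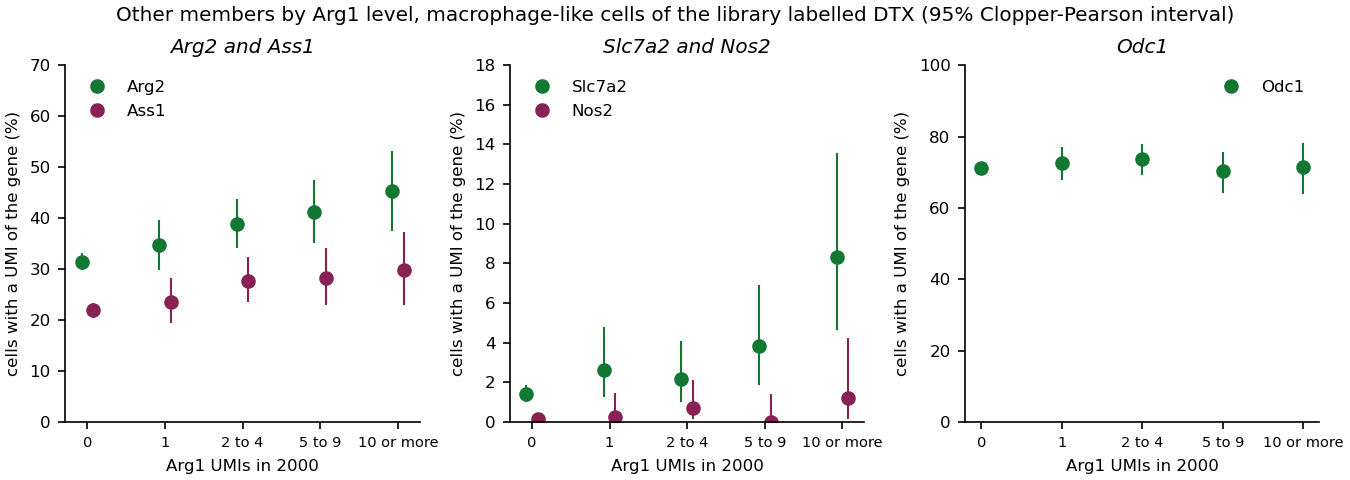
Percent of macrophage-like cells of the library labelled DTX with a UMI of the named gene (vertical axis) against the number of *Arg1* UMIs among 2000 (horizontal axis), with 95% Clopper-Pearson intervals. *Arg2* goes from 31.4% to 45.2% and *Slc7a2* from 1.40% to 8.33% over the 5 bins, while *Odc1* stays between 70.2% and 73.7%. The bins pool all subclusters.

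Outside macrophages, neutrophil-like cells had the highest level of *Arg2*, 292 CPM (221 to 378, 57 UMIs) in the library labelled PBS and 661 (614 to 709, 758 UMIs) in the library labelled DTX, a log2 ratio of 1.18 (0.79 to 1.59). The intervals set this class above macrophage-like cells in both libraries, and macrophage-like cells above dendritic-like ones (42.4 and 41.7 CPM), in which its log2 ratio was −0.02 (−0.36 to 0.32). The neutrophil-like cells were shallow, with 11 of 129 and 203 of 461 cells reaching 2000 UMIs. The 8 listed neutrophil genes, summed, were also higher, at 41400 and 89340 CPM (log2 ratio 1.11), while the fibroblast genes went from 2530 to 443 CPM and the keratinocyte genes from 1828 to 390. The listed macrophage genes, summed, stood at 14670 and 14050 CPM. At that share of macrophage RNA *Arg2* would stand at 54.3 and 175.5 CPM, though the share was uneven from gene to gene. The part of all these genes in the *Arg2* ratio was not tested. *Arg1* in neutrophil-like cells went from 1 UMI (5.12 CPM) to 149 UMIs in 24 cells (130 CPM, 110 to 153). Of the 3 members with enough UMIs 2 were 2-fold higher and 0 lower, beside 6.08% and 4.12% of 2863 genes.

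Fibroblast-like cells held more of the *Slc7a2* and *Nos2* UMIs of each library than any other class. *Slc7a2* stood at 127 CPM (123 to 131) and 96.1 (90.1 to 103), a log2 ratio of −0.40 (−0.50 to −0.30), and the class held 93.7% and 48.8% of its UMIs. The direction differed between its clusters: in cluster 1 (2159 and 312 cells) *Slc7a2* stood at 162.6 and 114.9 CPM (−0.50, −0.64 to −0.36), and in cluster 2 (908 and 343 cells) at 68.2 and 83.8 CPM (0.29, 0.13 to 0.45). *Nos2* stood at 3.94 CPM (3.31 to 4.65, 138 UMIs) and 7.53 (5.90 to 9.47, 73 UMIs), a ratio of 0.79 (0.42 to 1.15), with 90.8% and 59.4% of its UMIs. By cluster the log2 ratio of *Nos2* was 0.01 (−0.76 to 0.88) in cluster 1 and 0.44 (0.02 to 0.85) in cluster 2. Cluster 2 made up a larger part of the class in the DTX-labelled library, and the effect of this on the class ratio was not tested. Within the class *Nos2* was higher in cluster 2, the *Mfap5* and *Prg4* fibroblasts (8.32 and 11.6 CPM), than in cluster 1 (1.28 and 1.30 CPM). *Odc1* was the reverse, at 2072 and 1788 CPM in cluster 1 and 696 and 697 in cluster 2. Of the 6 members 3 were at least 2-fold higher in the DTX-labelled library, *Arg1* (0.542 to 12.3 CPM), *Arg2* (1.11 to 9.18) and *Ass1* (14.9 to 48.9), and 0 lower, beside 2.61% and 1.38% of 11813 genes. At the share of macrophage RNA in these DTX-labelled cells, given below, *Arg1* would stand at 19.3 CPM, *Arg2* at 7.51 and *Ass1* at 5.27. The part of macrophage RNA in this count was not tested.

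Pericyte-like cells had the highest *Slc7a2* level in both libraries, 158 CPM (133 to 186) in 61 cells and 343 (316 to 373) in 112 cells, a log2 ratio of 1.12 (0.85 to 1.39). In the DTX-labelled library 7 of these cells had 20 or more *Slc7a2* UMIs, up to 65. The top 11 cells held 52.0% of its 577 UMIs. In the PBS-labelled library no cell reached 20, and the highest value was 10. Pericyte-like cells were the class in which *Odc1* was higher in the DTX-labelled library by more than its interval, 842 against 1214 CPM (0.53, 0.41 to 0.65). Of the 2 members with enough UMIs 1 was 2-fold higher and 0 lower, beside 2.22% and 2.11% of 5637 genes. In endothelial-like cells *Nos2* was found in 7 of 73 and 7 of 58 cells (10.5 CPM, 5.24 to 18.8, and 16.5 CPM, 8.77 to 28.2). In the PBS-labelled library this level was above the fibroblast-like one by its interval, and in the DTX-labelled one the intervals of endothelial-like, neutrophil-like (8.72 CPM, 10 UMIs) and fibroblast-like cells overlapped. *Slc7a2* in endothelial-like cells went from 15 UMIs, which lay in 3 cells, to 0. Against the floor of 3 counts this was 3.76-fold lower, which leaves out the counting error of the 15 UMIs. The 10 listed fibroblast genes, summed, went from 7839 to 3724 CPM in the same cells. *Sparc* held most of both sums (5142 and 3518 CPM). *Col3a1* went from 720 to 36.8 CPM, *Dcn* from 586 to 21.5 and *Lum* from 117 to 2.53, while *Fbn1* stood at 34.3 and 38.0. The part of these genes in the *Slc7a2* value was not tested. The 1 member with enough UMIs there, *Odc1* (621 and 521 CPM), was not past 2-fold, beside 1.99% higher and 2.61% lower of 5025 genes.

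*Ass1* was measured highest in cluster 8 of the PBS-labelled library, where its interval overlapped that of dendritic-like cells. In the DTX-labelled library cluster 8 ranked 3, after macrophage-like cells (174 CPM), with overlapping intervals. In dendritic-like cells *Ass1* stood at 123 CPM (111 to 137) and 264.6 (248.6 to 281.3), a log2 ratio of 1.10 (0.92 to 1.27) and the highest class level in the DTX-labelled library. In cluster 8 it stood at 152.5 and 151.7 CPM (−0.01, −0.31 to 0.29). NK or T-like cells had 100 and 133 CPM of *Ass1*, and the highest *Odc1* of all classes, 2153 (2082 to 2225) and 2076 (2001 to 2152) CPM. Its 2 clusters differed. In cluster 7 *Odc1* stood at 2432 and 2344 CPM and *Ass1* at 114 and 144.5. In cluster 13 (41 and 29 cells) *Odc1* stood at 320 and 374 CPM and *Ass1* at 9.28 and 62.3. Of the 4 dendritic-like members with enough UMIs 2 were 2-fold higher, *Ass1* and *Arg1*, and 0 lower, beside 1.02% and 1.6% of 7124 genes. In NK or T-like cells and in cluster 8, 0 of the 2 members were past 2-fold in either direction, beside 1.12% and 1.93% higher and 1.29% and 1.51% lower. In epithelial-like cells 2 of 5 were 2-fold higher, *Arg1* (0.843 to 29.4 CPM) and *Arg2* (5.23 to 14.9), and 0 lower, beside 2.67% and 2.07% of 10288 genes, while *Odc1* stood at 1143 and 1144 CPM. The clusters of this class differed. In cluster 3 *Odc1* stood at 1321 and 1702 CPM (0.366, 0.306 to 0.425), and in cluster 4 at 856 and 826 (−0.051, −0.124 to 0.022). In cluster 12 it stood at 1044 and 353 CPM, from 69 and 7 cells.

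**Figure D5:**
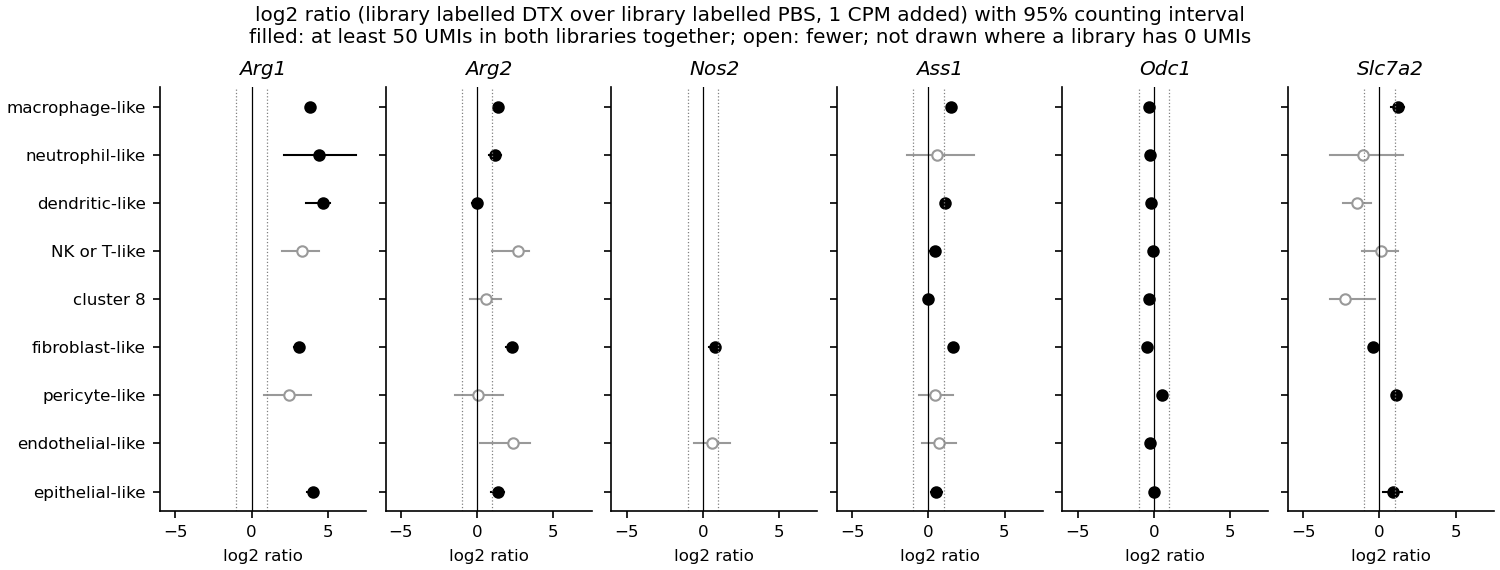
log2 ratio of the library labelled DTX over the library labelled PBS (horizontal axis, 1 CPM added) for each gene in 9 cell classes, with 95% counting intervals. Filled points have at least 50 UMIs in both libraries together, open points fewer, and genes with 0 UMIs in a library are not drawn. Dotted lines mark 2-fold. *Arg1* lies to the right of 2-fold in all 5 classes with a filled point, and *Odc1* between −0.46 and 0.53 in all 9.

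Over the 9 classes, *Arg1* was higher in the DTX-labelled library in 9, and in 8 of them by more than its counting interval. Outside macrophages this rested on few cells. The 114 epithelial-like UMIs lay in 14 cells, of which 3 held 20 or more each, the 132 dendritic-like UMIs in 16 cells and the 119 fibroblast-like UMIs in 33 cells. RNA of other macrophage genes was also higher in the fibroblast-like and epithelial-like cells: the summed level of 10 macrophage genes was 0.582% of that in macrophage-like cells in the fibroblast-like cells of the PBS-labelled library and 3.03% in those of the DTX-labelled one, and in epithelial-like cells 0.410% and 3.17%. The sum was higher as well in endothelial-like cells (83.9 to 713 CPM), pericyte-like cells (379 to 468) and cluster 8 (5356 to 5773). In dendritic-like cells that sum went from 9892 to 8380 CPM, in neutrophil-like cells from 14670 to 14050 and in NK or T-like cells from 2221 to 1957. At those shares of macrophage RNA, *Arg1* would stand at 19.3 CPM in DTX-labelled fibroblast-like cells, where 12.3 was measured, at 20.2 in epithelial-like cells (29.4 measured), at 15.0 in pericyte-like cells (16.7 measured) and at 22.9 in endothelial-like cells (2.53 measured). It would stand at 450.5 CPM in neutrophil-like cells (129.8 measured), 268.6 in dendritic-like cells (34.2 measured), 185.0 in cluster 8 (33.4 measured) and 62.7 in NK or T-like cells (26.8 measured). Gene by gene, the DTX-labelled share ran from 26.13% to 194.9% in neutrophil-like, 12.47% to 70.45% in dendritic-like and 1.335% to 31.41% in NK or T-like cells. In fibroblast-like cells it ran from 2.663% to 5.483%. Where the share is so uneven, the sum cannot tell RNA of macrophage-like cells from RNA that the class makes itself. The same computation gives 0.353 CPM for *Slc7a2* in fibroblast-like cells (96.1 measured), 0.026 for *Nos2* (7.53 measured), 5.27 for *Ass1* (48.9 measured) and 7.51 for *Arg2* (9.18 measured), and in epithelial-like cells 7.86 for *Arg2* (14.9 measured).

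The genes with class patterns most like that of *Arg1*, by Pearson's r of log2(CPM + 1) over the 18 points of 9 classes in 2 libraries among 10231 genes, were *Chil3* (0.866), *Tmbim6* (0.860), *Cmklr1* (0.805), *Chmp4b* (0.795) and *Ms4a8a* (0.785). For *Nos2* they were *Tek* (0.888), *Jam2* (0.872), *Galnt15* (0.866), *Sema3a* (0.863) and *Ctdsp2* (0.847). Classes of 1 library share their depth and capture, so that r is a description. *Arg1* and *Arg2* had an r of 0.658 with each other, *Arg1* and *Nos2* −0.068, and *Nos2* and *Odc1* −0.554.

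The 6 genes lie apart in the genome (GRCm38, GENCODE vM21): *Ass1* at chr2:31470207-31520672 (plus strand), *Slc7a2* at chr8:40862396-40922308 (plus), *Arg1* at chr10:24915221-24927484 (minus), *Nos2* at chr11:78920787-78960254 (plus), *Odc1* at chr12:17544794-17551505 (plus) and *Arg2* at chr12:79130777-79156301 (plus). Promoters of 2 members, *Ass1* and *Odc1*, were matched in the RefSeq promoter table (GRCm38.p6). No promoter of the other members was matched, so these 2 are shown. Each runs 5′ to 3′ on the plus strand from 250 bases before to 50 bases after the gene's start in RefSeq, which is not the GENCODE start given above, at chr2:31470020-31470319 and chr12:17544623-17544922, with capitals at matches on either strand to a GC box (GGGCGG) or an E-box (CACGTG).
Ass1: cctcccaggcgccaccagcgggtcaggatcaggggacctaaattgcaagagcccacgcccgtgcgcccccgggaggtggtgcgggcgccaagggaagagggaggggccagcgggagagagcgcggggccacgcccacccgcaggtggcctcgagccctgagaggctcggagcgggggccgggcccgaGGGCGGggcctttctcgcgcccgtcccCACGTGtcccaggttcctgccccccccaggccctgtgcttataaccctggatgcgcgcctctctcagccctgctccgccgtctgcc
Odc1: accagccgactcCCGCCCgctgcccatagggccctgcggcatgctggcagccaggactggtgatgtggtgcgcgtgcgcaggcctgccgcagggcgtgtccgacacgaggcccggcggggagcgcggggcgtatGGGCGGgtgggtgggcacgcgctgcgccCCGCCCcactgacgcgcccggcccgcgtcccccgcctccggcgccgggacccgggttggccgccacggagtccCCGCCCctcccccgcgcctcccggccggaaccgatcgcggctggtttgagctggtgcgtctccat
The *Ass1* promoter held 1 GC box and 1 E-box and was 74.0% G and C, and the *Odc1* promoter held 4 GC boxes and no such E-box and was 78.0% G and C. Among all 32851 promoters of that length, 35.7% held the GC box and 7.2% the E-box, and the median G and C content was 52.7%. Neither held TGACGTCA, CCAAT or TATAAA in this window. A match of letters is a description of the sequence.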

How the data were processed

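Live cells of day 5 wounds were profiled with the 10x 3′ v3 chemistry in 2 libraries, 1 per group. The deposited matrices give UMI counts of every gene in every barcode, made by the authors against mm10 with Cell Ranger (6.1.1 by the submitters' processing notes and the file header) and not normalized. The files held 12058 (PBS) and 11031 (DTX) barcodes, the numbers of cells that the study states for the opposite groups, and 37 barcodes occurred in both. Barcodes with 500 or more genes detected and no more than 6% of UMIs from mitochondrial genes were taken as cells (8326 and 7188). The study's methods also name an upper limit of 2000 genes, which would leave 2522 and 2642 cells and was run as an alternative.

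Doublets were scored with Scrublet in scanpy 1.11.5 at an expected rate of 8%. It called 382 cells of the library labelled PBS and 0 of the library labelled DTX, where it had not worked, and the top 8% of scores (575 cells) were removed there instead. Median depth after filtering was 9579.5 and 7286 UMIs per cell. Cells were clustered in R 4.3.3 with Seurat 5.3.0 (2000 variable genes less the listed arginine genes, 30 principal components, resolution 0.2, and 0.5 for the macrophage-like cells alone), and clusters were called "X-like" from marker lists. UMIs were summed per class and library. CPM carry exact Poisson intervals, log2 ratios (DTX over PBS, 1 CPM added) exact conditional binomial intervals and shares of cells Clopper-Pearson intervals, all at 95% and all for counting error only. Genes with at least 50 UMIs in both libraries together were counted, and 2-fold was the limit. With 1 library per group no test was run. The computation was tested on simulated counts with known changes. Named were the 6 members, Mrc1, at most the 3 highest and 3 lowest log2 ratios of each list, and the 5 genes most like Arg1 and Nos2 by class pattern. Leading genes of clusters are given to describe them. Members and lists were chosen with earlier results of these data known.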

Additional observations from a re-analysis of the deposited data

Results flagged for a closer look

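*Slc7a2* had log2 ratios of opposite sign in different classes. It was higher in the DTX-labelled library in macrophage-like (1.19) and pericyte-like (1.12) cells and lower in dendritic-like cells (−1.49, from 22 and 8 UMIs), cluster 8 (−2.25, from 10 and 1 UMIs) and endothelial-like cells (−3.94, from 15 UMIs in 3 cells and 0, a value that depends on the 1 CPM added). The 3 lower values rest on fewer than 50 UMIs each. In pericyte-like cells of the DTX-labelled library, 11 of 112 cells held 52.0% of the *Slc7a2* UMIs. Summed fibroblast genes were also lower in the DTX-labelled library in these classes, from 754 to 126 CPM in dendritic-like cells and 391 to 109 in cluster 8. In endothelial-like cells the sum went from 7839 to 3724 CPM, most of it *Sparc* (5142 and 3518 CPM). There *Dcn* went from 586 to 21.5 CPM and *Fbn1* stood at 34.3 and 38.0. The part of these genes in the *Slc7a2* values was not tested. In fibroblast-like cells the ratio itself was −0.50 in cluster 1 and 0.29 in cluster 2. No pair of classes was compared by a test, as there is 1 library per group.

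Barcodes that the filters left out also carried the members. Among the 2620 and 2992 barcodes with at least 500 genes and over 6% mitochondrial UMIs, *Arg1* stood at 2.36 CPM in the PBS-labelled library and 115 in the DTX-labelled one, *Arg2* at 9.62 and 61.0, *Ass1* at 23.3 and 61.2, *Odc1* at 871 and 910, *Slc7a2* at 29.1 and 35.8, and *Nos2* at 0.372 and 2.06. Among the 1112 and 851 barcodes with fewer than 500 genes, *Arg1* stood at 0.941 and 50.3 CPM, *Arg2* at 15.1 and 50.3, and *Ass1* at 3.77 and 26.9. These barcodes mix cell types and were not sorted into classes.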

How the results depend on the processing

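No paired analysis was possible because each group has 1 library. The alternatives changed the filters on cells, the doublet step, the clustering, the CPM added, the scaling and the weighting of cells, and 2 more, chosen after seeing the data, changed the make-up of the macrophage-like class. The log2 ratio of *Arg1* (3.83) stayed past 2-fold in 13 of 13. It was 4.32 in cells with at most 2000 genes, 3.58 with 10 CPM added, 2.54 without subcluster 2, and 1.47 with the subcluster shares of the PBS-labelled library in both. That last setting left 1 member past 2-fold in place of 4 and turned the sign of *Slc7a2* to −0.12. It leaves out the 4 subclusters that hold most of the DTX-labelled cells, and it also reweights the rest. Which of these steps turned the sign was not tested. Inside subclusters 0, 3, 5 and 6 the log2 ratio of *Slc7a2* was 0.20, −0.99, 0.37 and 1.48, each with an interval that spans 0. Under the other alternatives 3 or 4 members were past 2-fold. In the main setting 1.63% of all genes were 2-fold higher and 3.32% lower. The shares of all genes under each alternative are not given here, so these counts describe the members alone. The fitted *Nos2* ratio (0.89), which rests on 0 UMIs in the PBS-labelled library, was 3.25 with 0.1 CPM added and 0.12 with 10 CPM. It was 1.31 with at most 2000 genes, 1.22 as the mean of each cell's CPM and 0.92 with a mitochondrial limit of 10%. With the arginine genes left in the clustering it was 0.90, and at resolution 0.5 it was 0.93. No size can therefore be given to it. The 2.36-fold value against the floor of 3 counts leaves out the counting error of the 26 UMIs. *Odc1* ran from −0.38 to −0.21 and passed 2-fold in 0 of 13. The share of *Arg1* cells with *Nos2* (0.489%) ran from 0.331% to 1.01% in 9 alternatives, and was 0 in the PBS-labelled library in each. The other scalings shifted the DTX-labelled CPM by a log2 factor of 0.074 (median of ratios) and 0.069 (TMM), both under 0.1. The shift was made before 1 CPM was added, so the log2 ratios of members with a low CPM moved by less. Depth limits *Nos2* most, at 26 UMIs in macrophage-like cells.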

Other observations

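Of 32 further pathway genes with at least 50 UMIs in fibroblast-like cells 2 were 2-fold higher and 0 lower, beside 2.61% and 1.38% of all genes there. *Smox*, which oxidizes spermine, stood at 15.8 CPM in the PBS-labelled library and 32.8 in the DTX-labelled one (log2 ratio 1.01) and *Gatm*, which makes guanidinoacetate from arginine and glycine, at 0.94 and 4.13 (1.40). At the share of macrophage RNA in these cells *Smox* would stand at 2.17 and 15.4 CPM and *Gatm* at 0.251 and 1.03. In cluster 8, 1 of 17 such genes was 2-fold higher and 0 lower, beside 1.93% and 1.51%: *Pts*, which acts in the synthesis of the cofactor of the nitric oxide synthases, at 47.2 and 98.6 CPM (1.05). Within subcluster 4 of the macrophage-like cells, led by *Ccl7* and *Cbr2*, the *Odc1* level of 2047 CPM (2003 to 2091) in the DTX-labelled library was the highest of the 8 subclusters, and *Odc1* was found in 86.4% of its thinned cells against 54.5% to 75.6% in the others of that library.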
